A study of Drosophila melanogaster with 4 samples.

Results

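The genes described here encode aminoacyl-tRNA synthetases, the enzymes that join each amino acid to its tRNA. They were taken as every gene whose symbol in the deposited tables starts with Aats-, which gave 21 of 14162 genes. Aminoacyl-tRNA synthetases fall into class I and class II, which have unrelated catalytic folds. Most animal cells carry one set of synthetases for the cytosol and another, also encoded in the nucleus, for the mitochondria. Several cytosolic synthetases of animals sit together in the multisynthetase complex, held by scaffold proteins. In mammals the genes of many cytosolic synthetases are targets of ATF4, the transcription factor made when the kinases GCN2 or PERK phosphorylate eIF2alpha.

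In the study, dvpdf neurons of Drosophila melanogaster brains gave 4 mRNA libraries, of which 2 carry the label control and 2 the label NonA RNAi. nonA encodes a nuclear RNA-binding protein and was targeted by RNA interference in dvpdf cells in the second group. The name dvpdf is that of a Gal4 driver known to label PDF clock neurons and some other lateral clock neurons. Genotype, age and time of day were not given in the labels, and nothing there says that replicates came from separate flies or dissections, so the spread that p-values measure may be technical.

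Reads assigned to genes numbered between 8419248 and 9832771 per library. Levels are given as reads per 1000000 gene reads (CPM), where 3 reads correspond to 0.305 to 0.356 CPM. Intervals rest on counting error and the spread between libraries. They do not cover a bias of RNA amplification shared by all libraries. The clock neuron gene Pdf was at 4979 and 2159 CPM in control replicates 1 and 2 and at 18436 and 86575 CPM in NonA RNAi replicates 1 and 2. nonA itself had control levels of 256 and 241 CPM and NonA RNAi levels of 168 and 283 CPM, in the order of replicates 1 and 2 kept for every gene here. Its log2 fold was -0.14 (standard error 0.48). Its groups overlapped, and only NonA RNAi replicate 1 lay below both controls, so every direction for the libraries labelled NonA RNAi rests on the labels. NonA RNAi replicate 1 also stood apart in its reads. Gene reads were 22.0% of its entries, against 15.9% to 16.5% in the other libraries, and reads aligned to several places were 45.2%, against 53.7% to 55.6%.

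By their current RefSeq names, 6 of the 21 Aats- genes encode mitochondrial synthetases. The other 15 lack the ending -m of those names and are called cytosolic here. No gene with that ending was matched for glutamine, glycine, histidine, lysine or threonine. Whether some of the 15 also serve mitochondria was not tested. The mitochondrial genes include Aats-leu, Aats-met, Aats-phe, Aats-pro and Aats-ser, whose older symbols carry no mark of this, besides Aats-ala-m. Class I enzymes accounted for 9 genes and class II enzymes for 11, and Aats-glupro encodes a fused enzyme with a domain of either class. All 21 genes were read in every library, with 55 to 3493 reads, and all 21 passed the filter of a mean of at least 1 CPM. In 8 of them exons overlap an exon of a neighbouring gene in the Release 6 annotation. Because the use of strand in counting was not given in the sources used here, these 8 are less certain. For the 13 genes without overlap the summed level was 698 and 761 CPM in controls and 1726 and 674 CPM under NonA RNAi. Summed over neighbours, the overlap for Aats-asp was 1575 bases on the opposite strand and 154 bases on the same strand. On the opposite strand it was 905 bases for Aats-glupro and 356 for Aats-ser. It was 255 bases on the same strand for Aats-his, and at most 45 bases for the other 4.

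The cytosolic synthetase genes were high together in NonA RNAi replicate 1 and not in NonA RNAi replicate 2. Their summed level was 856 and 903 CPM in the controls, 2557 CPM in NonA RNAi replicate 1 and 773 CPM in NonA RNAi replicate 2. The first NonA RNAi library thus stood at 2.91 times the control mean, and the second at 0.879 times it. The mitochondrial Aats- genes summed to 124 and 114 CPM in the controls and to 177 and 148 CPM in the NonA RNAi libraries. Their sum was 1.49 and 1.24 times the control mean in NonA RNAi replicates 1 and 2. For all 21 genes the sum was 999 ± 26.7 CPM (SD, n = 2) over the controls and 1827 ± 1282 CPM (SD, n = 2) over NonA RNAi, so the difference between the groups was smaller than the spread between the NonA RNAi libraries. In bulk libraries a smaller share of cells of one type and less RNA per cell cannot be told apart.

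**Figure D1:**
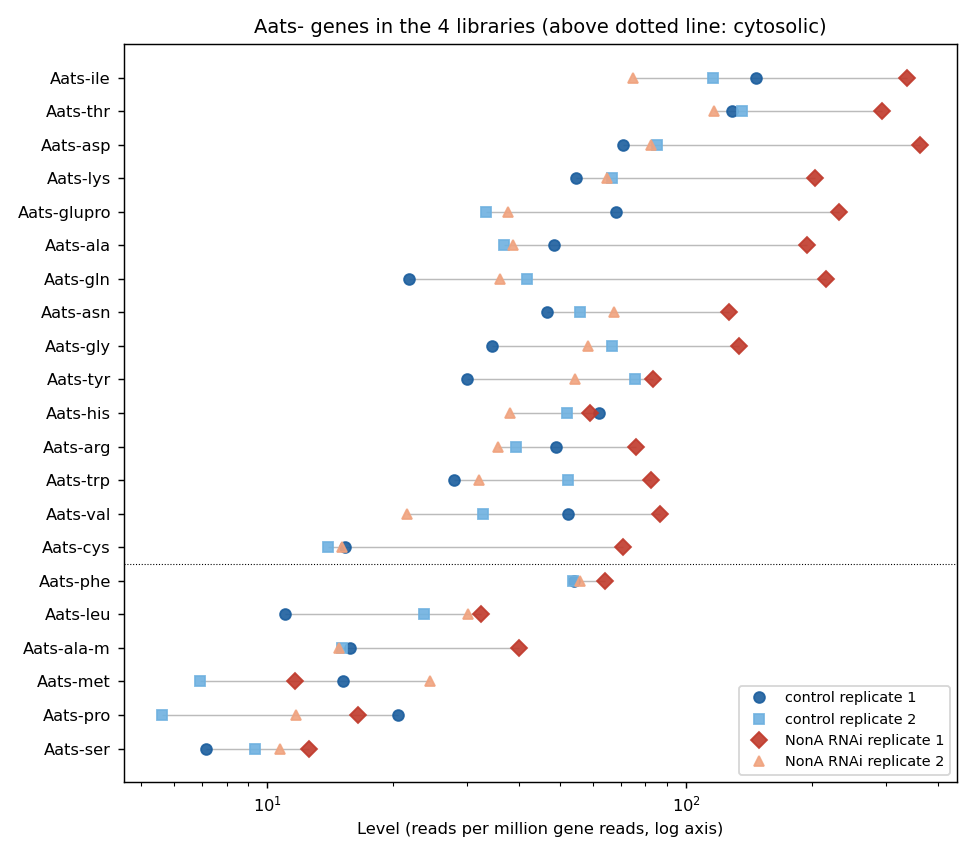
Level of each of the 21 Aats- genes in CPM on a log axis, with 1 symbol per library and a grey line from the lowest to the highest. The red diamonds of NonA RNAi replicate 1 lie to the right of the other libraries in 14 of 15 cytosolic genes, while the orange triangles of NonA RNAi replicate 2 lie among the controls or below them in most.

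By the quasi-likelihood test of edgeR, adjusted after Benjamini and Hochberg, 0 of the 21 genes passed an adjusted p under 0.05, and 0 of all 9404 genes tested passed (0.0%). At an unadjusted p under 0.05 there were 0 of 21, against 4.86% of all genes in either direction and 1.29% higher. DESeq2 called 0 of 21 after adjustment, against 1.52% of all genes, and 2 of 21 (Aats-asp and Aats-gln) at an unadjusted p under 0.05, against 8.67%. With 2 libraries a group, an exact permutation test of a single gene cannot give a two-sided p below 0.33. The log2 fold was above 0 for 20 of 21 genes, against 49.6% of all genes, with a median of 0.71 against -0.0076 over all genes. By class, it was above 0 for 9 of 9 class I genes (median 0.65) and 10 of 11 class II genes (median 0.83). Both NonA RNAi libraries lay above both controls for 4 of 21 genes, against 15.2% of all genes, and below both for 0 of 21, against 17.5%. The count above both controls was 8 of 21 with TMM scaling, against 16.9% of all genes, and 8 of 21 with Pdf left out of the library size, against 18.2%. With median-of-ratios scaling it was 6 of 21, against 15.9%. The smallest adjusted p among the 21 was 0.919 and standard errors ran from 0.44 to 0.93, which left wide intervals for every gene.

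**Figure D2:**
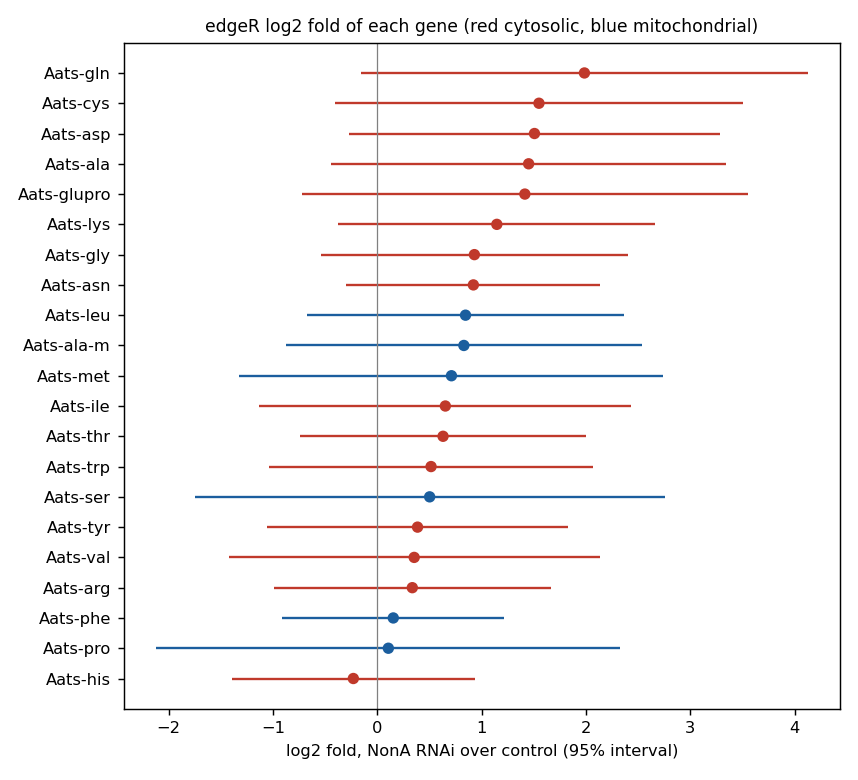
edgeR log2 fold of the libraries labelled NonA RNAi over the controls for each Aats- gene, with its 95% interval, cytosolic genes in red and mitochondrial genes in blue. Every interval contains 0, and the points run from -0.23 for Aats-his to 1.99 for Aats-gln.

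The NonA RNAi libraries differed from each other. NonA RNAi replicate 1 lay above both controls for 18 of 21 genes, against 38.0% of all genes, and was the highest of the 4 libraries for 18 of 21, against 32.6%. It was at least 2 times every other library for 10 of 21, against 9.41% of all genes. NonA RNAi replicate 2 lay above both controls for 5 of 21, against 27.6%, and below both for 6 of 21, against 34.5%. Without NonA RNAi replicate 1 the median log2 fold of the 21 genes was 0.042, with 11 of 21 above 0, beside a median of -0.14 over all genes, of which 42.0% were above 0. Without NonA RNAi replicate 2 the median was 1.15 with 21 of 21 above 0, beside a median of -0.049 over all genes, of which 48.3% were above 0. That fit takes the spread of the single remaining NonA RNAi library from the controls. There 9 of 21 genes reached an unadjusted p under 0.05, all of them higher, against 5.77% of all genes called higher and 11.4% in either direction. No member passed adjustment in it, the smallest adjusted p being 0.218 for Aats-asp in edgeR.

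Among the cytosolic Aats- genes, those whose amino acids belong to the multisynthetase complex together stood at 3.60 times the control mean in NonA RNAi replicate 1. The 6 genes, for arginine, aspartate, glutamine, glutamate with proline, isoleucine and lysine, summed to 411 and 382 CPM in the controls and to 1427 and 331 CPM under NonA RNAi. The other 9 cytosolic genes stood at 2.34 times it and summed to 445 and 521 CPM in the controls and to 1131 and 442 CPM in the NonA RNAi libraries. Their medians of the log2 fold were 1.28 and 0.63, and the difference between them was not tested. The complex also holds the cytosolic enzymes for leucine and methionine, whose genes have other symbols. CG33123, for leucine, had control levels of 75.7 and 90.6 CPM and NonA RNAi levels of 188 and 73.8 CPM, which put NonA RNAi replicate 1 at 2.27 times the control mean. CG15100, for methionine, had control levels of 111 and 32.7 CPM and NonA RNAi levels of 65.1 and 60.4 CPM, with both NonA RNAi libraries between the controls and a log2 fold of -0.20.

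Aats-gln, the glutaminyl-tRNA synthetase gene, was at 21.9 and 41.8 CPM in control replicates 1 and 2 and at 216 and 35.9 CPM in NonA RNAi replicates 1 and 2. One library was thus about 5 times as high as any other, while NonA RNAi replicate 2 lay between the controls. Its log2 fold of 1.99 was the largest of the 21. Its standard error was 0.88, the 95% interval ran from -0.16 to 4.13 and its adjusted p in edgeR was 0.919. Aats-glupro, which charges both glutamate and proline tRNAs, had control levels of 67.9 and 33.4 CPM and NonA RNAi levels of 232 and 37.5 CPM. At 6.20, its ratio between the NonA RNAi libraries was the highest of the 21. Aats-asp, for aspartate, had control levels of 70.9 and 85.1 CPM and NonA RNAi levels of 361 and 82.4 CPM, and had the highest read number of all members. The exons of Aats-asp overlap Nmda1 and an antisense RNA by 1575 bases, summed over both, on the other strand. Another antisense RNA overlaps them by 154 bases on the same strand. Without strand, reads of Aats-asp and of these neighbours cannot be told apart there.

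Aats-ile, for isoleucine, had control levels of 147 and 116 CPM and NonA RNAi levels of 338 and 74.8 CPM. Aats-lys, for lysine, showed 54.5 and 66.5 CPM in controls, compared with 203 and 64.9 CPM under NonA RNAi. Aats-arg, for arginine, showed 48.9 and 39.3 CPM in controls, compared with 75.8 and 35.5 CPM under NonA RNAi. In all 3 genes NonA RNAi replicate 1 was the highest library. NonA RNAi replicate 2 was the lowest for Aats-ile and Aats-arg and lay between the controls for Aats-lys.

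Outside the complex, Aats-cys and Aats-ala also had their highest level in NonA RNAi replicate 1. Aats-cys, for cysteine, had control levels of 15.3 and 13.9 CPM and NonA RNAi levels of 70.6 and 15.1 CPM. Aats-ala, for alanine, had control levels of 48.5 and 36.8 CPM and NonA RNAi levels of 194 and 38.7 CPM. For both genes the 3 other libraries lay close together and NonA RNAi replicate 1 was at least 4 times the highest of them. Their log2 folds were 1.55 and 1.45 with standard errors of 0.80 and 0.78.

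Aats-gly, for glycine, had control levels of 34.3 and 66.6 CPM and NonA RNAi levels of 134 and 58.4 CPM. Aats-thr, for threonine, showed 129 and 136 CPM in controls, compared with 293 and 116 CPM under NonA RNAi. Aats-asn, for asparagine, showed 46.6 and 55.8 CPM in controls, compared with 127 and 67.2 CPM under NonA RNAi. Aats-asn was the 1 of 15 cytosolic genes whose groups did not overlap, with NonA RNAi the higher, against 15.2% of all genes. Its log2 fold was 0.92 (standard error 0.50, adjusted p 0.919 in edgeR). For Aats-thr, NonA RNAi replicate 2 lay below both controls.

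Aats-trp, for tryptophan, had control levels of 27.9 and 52.2 CPM and NonA RNAi levels of 82.5 and 32.0 CPM. Aats-tyr, for tyrosine, showed 29.9 and 75.4 CPM in controls, compared with 83.4 and 54.2 CPM under NonA RNAi. Leaving out control replicate 1 moved its log2 fold from 0.39 to -0.13. Aats-val, for valine, showed 52.1 and 32.7 CPM in controls, compared with 86.8 and 21.6 CPM under NonA RNAi, the lowest value of NonA RNAi replicate 2 relative to the controls, at a log2 ratio of -0.97. Aats-his, for histidine, was the exception among the cytosolic genes. It had control levels of 61.9 and 51.9 CPM and NonA RNAi levels of 58.9 and 38.1 CPM, and its log2 fold of -0.23 was the 1 below 0.

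The ratio of NonA RNAi replicate 1 to replicate 2 had a median of 1.16 over the 6 mitochondrial genes, from 0.476 to 2.70, and of 3.13 over the 15 cytosolic genes, from 1.54 to 6.20. This difference between the subsets was not tested. Aats-ala-m, for mitochondrial alanine, had control levels of 15.8 and 15.1 CPM and NonA RNAi levels of 40.0 and 14.8 CPM, the order seen in the cytosolic genes. Aats-leu, for mitochondrial leucine, had control levels of 11.05 and 23.7 CPM and NonA RNAi levels of 32.4 and 30.1 CPM. Aats-phe, for mitochondrial phenylalanine, showed 54.0 and 53.8 CPM in controls, compared with 63.99 and 56.0 CPM under NonA RNAi, and Aats-ser, for mitochondrial serine, showed 7.13 and 9.36 CPM in controls, compared with 12.6 and 10.8 CPM under NonA RNAi. In Aats-leu, Aats-phe and Aats-ser the groups did not overlap and NonA RNAi was the higher. That was 3 of the 6 mitochondrial genes, against 15.2% of all genes. For Aats-ser, control replicate 2 and NonA RNAi replicate 2 had 92 reads each. The log2 folds of Aats-leu, Aats-phe and Aats-ser were 0.85, 0.15 and 0.50, beside standard errors of 0.63, 0.44 and 0.93.

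Aats-met, for mitochondrial methionine, had control levels of 15.2 and 6.92 CPM and NonA RNAi levels of 11.7 and 24.5 CPM. It was the 1 gene of the 21 with its highest level in NonA RNAi replicate 2. Aats-pro, for mitochondrial proline, had control levels of 20.5 and 5.59 CPM and NonA RNAi levels of 16.4 and 11.7 CPM. The controls of Aats-pro differed 3.67-fold, the most of any member. Leaving out control replicate 2 moved its log2 fold from 0.11 to -0.55.

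**Figure D3:**
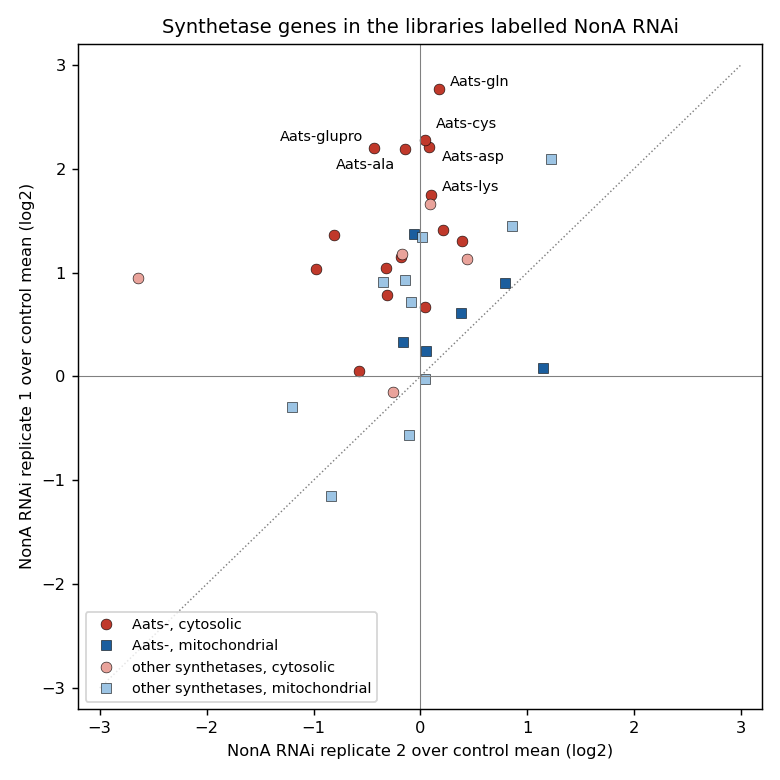
Level of each synthetase gene in NonA RNAi replicate 2 (horizontal axis) and replicate 1 (vertical axis), each as the log2 ratio to the mean of the controls, for the 21 Aats- genes and 15 synthetase genes with other symbols. The 15 cytosolic Aats- genes in red lie above the dotted line of equal levels, from 0.051 to 2.77 on the vertical axis and from -0.97 to 0.39 on the horizontal axis.

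Per length, the cytosolic synthetase transcripts were mostly more abundant than the mitochondrial ones. The mean over the 4 libraries ran from 11.7 to 66.1 CPM per kilobase of exon for the cytosolic genes, with a median of 28.9, and from 3.38 to 37.3 for the mitochondrial genes, with a median of 7.34. Aats-asp had the highest mean level per length at 66.1 CPM per kilobase, followed by Aats-thr at 58.2 and Aats-ile at 43.3. For these 3 genes the values per library ran from 31.3 to 159, from 40.2 to 101 and from 19.2 to 86.6 CPM per kilobase, so their ranges overlap. The first place of Aats-asp rests on NonA RNAi replicate 1, since in the 3 other libraries Aats-thr was the highest of the 21 genes per length. The lowest was Aats-met at 3.38 CPM per kilobase, with 1.60 to 5.69 over the libraries. Across the 21 genes, Spearman's rho of the level per length was 0.84 between the controls, 0.95 between control replicate 2 and NonA RNAi replicate 2, and 0.66 to 0.76 between NonA RNAi replicate 1 and each other library. These values describe genes that share exon lengths in all libraries.

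Of 15 synthetase genes with other symbols, 5 encode cytosolic and 10 mitochondrial proteins, the latter including the synthetase-like protein Slimp. The cytosolic genes summed to 322 and 213 CPM in the controls and to 537 and 229 CPM in the NonA RNAi libraries. NonA RNAi replicate 1 was the highest library for 4 of these 5 and 6 of the 10 mitochondrial genes, against 32.6% of all genes. It was at least 2 times every other library for 3 of the 15, against 9.41% of all genes. Among the 4, CG5706 had control levels of 62.0 and 10.9 CPM and NonA RNAi levels of 70.1 and 5.84 CPM. NonA RNAi replicate 1 was there 1.13 times the next highest library. CG17259, the cytosolic seryl-tRNA synthetase gene, had control levels of 53.0 and 42.3 CPM and NonA RNAi levels of 151 and 50.6 CPM. CG31739, for mitochondrial aspartate, showed 27.7 and 41.8 CPM in controls, compared with 148 and 81.1 CPM under NonA RNAi. Its log2 fold was 1.72 (standard error 0.53). In edgeR it had the 1 unadjusted p under 0.05 among all 36 synthetase genes, against 4.86% of all genes, and an adjusted p of 0.919. Both NonA RNAi libraries lay above both controls for 3 of the 15, against 15.2% of all genes, and below both for 1, against 17.5%. Besides CG31739, the 3 above included CG6796, for mitochondrial asparagine, with a log2 fold of 1.18. CG2263, for cytosolic phenylalanine, was the other, with control levels of 20.3 and 36.7 CPM and NonA RNAi levels of 62.2 and 38.7 CPM. CG5414, for mitochondrial isoleucine, showed 66.2 and 50.4 CPM in controls, compared with 26.3 and 32.6 CPM under NonA RNAi, below both controls.

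Translation genes of other kinds give a comparison within the same libraries. These sets were taken by symbol prefix: eIF, RpL or RpS, and mRpL or mRpS. Genes of the same kinds under other symbols are left out, and paralogues with the prefix are included. The translation initiation factors summed to 5177 and 5929 CPM in the controls and to 5509 and 5637 CPM in the NonA RNAi libraries, for 28 genes. The cytoplasmic ribosomal protein genes, 89 in number, summed to 39737 and 66942 CPM in the controls and to 58867 and 72619 CPM under NonA RNAi. The 72 mitochondrial ribosomal protein genes summed to 2791 and 3179 CPM against 2821 and 3518 CPM. NonA RNAi replicate 1 was the highest library for 16 of 25, 8 of 83 and 22 of 71 of the tested genes in these sets. Over all genes the share was 32.6%. The differences from the synthetase genes were not tested.

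**Figure D4:**
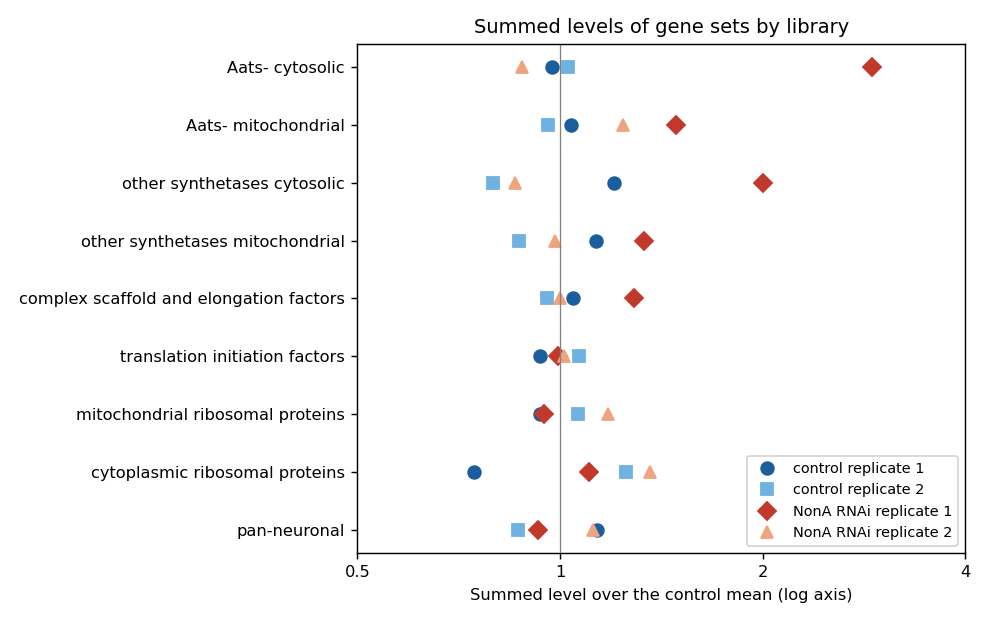
Summed level of each gene set in each library, divided by the mean of the controls, on a log axis. NonA RNAi replicate 1 stands at 2.91 for the cytosolic Aats- genes and at 0.992 for the translation initiation factors.

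Genes of the scaffold proteins of the multisynthetase complex and of cytosolic translation elongation factors formed a list of 9 genes, each tested in the fit over all genes. Of these 6 had a log2 fold above 0, against 49.6% of all genes. In edgeR 0 passed the test, against 0.0% of all genes, and 0 had an unadjusted p under 0.05, against 4.86%. CG12304, the gene of the scaffold protein AIMP2, had control levels of 29.1 and 22.4 CPM and NonA RNAi levels of 62.9 and 45.7 CPM. Its log2 fold was 1.08 (standard error 0.50). The other scaffold genes CG8235 and CG30185 had log2 folds of 0.043 and -0.063. Ef1beta and eEF1delta, whose products exchange the nucleotide of the elongation factor, were at log2 folds of 0.70 and -0.74. Of the partners of mitochondrial charging 5 were matched and 4 tested. Of the 4 tested 2 were above 0, against 49.6% of all genes, and 0 passed the test, against 0.0%. CG12736, for a mitochondrial elongation factor, showed 38.96 and 23.2 CPM in controls, compared with 83.9 and 33.3 CPM under NonA RNAi.

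A further list held 8 genes around eIF2alpha and linked stress responses, not only the response to uncharged tRNA. NonA RNAi replicate 1 was the highest library for 6 of 8, against 32.6% of all genes. NonA RNAi replicate 2 lay below both controls for 5 of 8, against 34.5%. In edgeR 0 of 8 passed the test, against 0.0% of all genes, and 0 of 8 had an unadjusted p under 0.05, against 4.86%. PEK, the gene of the PERK kinase of the endoplasmic reticulum, had control levels of 86.3 and 59.4 CPM and NonA RNAi levels of 825 and 33.5 CPM. asparagine-synthetase, which makes asparagine and is an ATF4 target in mammals, showed 21.6 and 33.4 CPM in controls, compared with 118 and 38.8 CPM under NonA RNAi. Gcn2, the kinase gene of the uncharged tRNA sensor, showed 50.8 and 46.2 CPM in controls, compared with 132 and 67.8 CPM under NonA RNAi. CG6272, which encodes the Xrp1 partner Irbp18, showed 33.9 and 47.0 CPM in controls, compared with 84.7 and 51.2 CPM under NonA RNAi. Xrp1 and crc, the fly ATF4 gene, are given besides these 4 because of their role, a choice made with values known. Xrp1 showed 647 and 552 CPM in controls, compared with 1639 and 502 CPM under NonA RNAi. For crc the levels were 1758 and 2252 CPM in controls and 1351 and 1423 CPM under NonA RNAi, below both controls in both. Thor, also on this list, showed 93.1 and 86.1 CPM in controls, compared with 81.3 and 52.3 CPM under NonA RNAi, again below both controls.

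In the list of tRNA maturation and modification, 7 of 8 genes had a log2 fold above 0, against 49.6% of all genes, and 0 passed, against 0.0%. NonA RNAi replicate 1 was the highest library for 4 of 8, against 32.6% of all genes. It was the lowest for 2 of 8, against 28.3%. JhI-1, the gene of the tRNA end-processing enzyme RNaseZ, had control levels of 10.2 and 4.78 CPM and NonA RNAi levels of 68.5 and 8.06 CPM. Elp3, a tRNA modification gene, had a log2 fold of 0.82 (standard error 0.54). CG6133, the gene of the tRNA methyltransferase Nsun2, was at 1.24 (standard error 0.91). It had control levels of 7.36 and 13.9 CPM and NonA RNAi levels of 41.1 and 9.35 CPM, with NonA RNAi replicate 2 between the controls. Of the growth signalling genes 4 of 8 were above 0, against 49.6% of all genes, and 0 passed, against 0.0%. Tor, the growth kinase gene, showed 12.4 and 14.3 CPM in controls, compared with 56.8 and 19.0 CPM under NonA RNAi. foxo, a transcription factor gene restrained by insulin signalling, showed 20.3 and 41.8 CPM in controls, compared with 5.996 and 9.35 CPM under NonA RNAi, with an unadjusted p of 0.0302 and an adjusted p of 0.919 in edgeR. The log2 folds of raptor and S6k were 1.46 and -0.54, with standard errors of 1.31 and 0.41.

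Marker genes of other cells differed between the libraries, with the hemocyte markers nearly absent from NonA RNAi replicate 1. The 5 hemocyte markers summed to 1407 and 494 CPM in the controls and to 1.76 and 557 CPM in NonA RNAi replicates 1 and 2, with 4 of the 5 (Hml, nimC1, He and Sr-CI) at 0 reads in NonA RNAi replicate 1. The 7 glial markers summed to 1859 and 6007 CPM in the controls and to 372 and 2248 CPM in the NonA RNAi libraries, with 0 of 7 at 0 reads in either NonA RNAi library. Of these, repo and moody were higher in NonA RNAi replicate 1 than in control replicate 1, and Gs2 and nrv2 made up most of the control sums. The 7 photoreceptor markers summed to 344 and 480.2 CPM against 130.4 and 231 CPM (Rh4 and trp at 0 in NonA RNAi replicate 1), and the 7 fat body markers to 3339.85 and 26.8 CPM against 183 and 10.4 CPM (Lsp2, Lsp1alpha and fit at 0 in both NonA RNAi libraries). The 5 pan-neuronal genes summed to 2500.5 and 1904 CPM in the controls and to 2039 and 2465 CPM in the NonA RNAi libraries. In NonA RNAi replicate 1 the hemocyte, glial and photoreceptor sums were the lowest of the 4 libraries, while the fat body sum lay between those of the other libraries. Of the photoreceptor genes, ninaE, Rh3 and Arr1 were lowest in NonA RNAi replicate 2. The 5 clock neuron genes summed to 9921 and 4719 CPM in controls and 25024 and 92258 CPM under NonA RNAi. Whether the composition of the cells collected contributed to the synthetase levels was not tested.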

How the data were processed

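Per the labels' protocols, mRNA of dvpdf neurons was extracted and amplified and Illumina TruSeq libraries were made. Genome build dm3, Cufflinks and TopHat2 2.1.1 are named in the submitters' processing notes. The counting program, its annotation and whether strand was used were not given. Per the file headers, the authors deposited raw read counts, a length and RPKM for each gene symbol, of which the raw counts are whole numbers. The deposited RPKM served only as an alternative filter. Library sizes are sums of gene rows, 15.9% to 22.0% of all entries, without the 4 rows for reads assigned to no gene.

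Reads were scaled to the sum of gene rows, with no further factor. Genes at a mean of at least 1 CPM were tested with edgeR 4.0.16 (R 4.3.3), control against NonA RNAi, two-sided quasi-likelihood test, Benjamini-Hochberg threshold 0.05, after a test on simulated data. Standard errors are the absolute log2 fold over the square root of F. Alternatives were TMM, median-of-ratios and Pdf-free scaling, other filters, a replicate block, DESeq2 1.42.0 and each library left out. Symbols were matched to RefSeq names of Release 6. Exon lengths and overlaps come from Ensembl release 115 of that build, and no coordinates are given, since the files use dm3. The members, lists, tests and the rule for named genes were chosen with earlier results of these data known. That rule gave values in every library for members whose groups did not overlap, the 3 highest per length and the 4 with the largest replicate ratio, which was extended to all 21, and up to 4 genes of each further list by smallest p. One gene of a further list is not reported here.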

Additional observations from a re-analysis of the deposited data

How the results depend on the processing

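Across the 12 alternatives run, the count of Aats- genes past the threshold stayed at 0, and the median log2 fold of the 21 genes stayed above 0. Leaving out single libraries moved that median between 0.042 and 1.15 and the log2 ratio of the summed levels between -0.12 and 1.45, from 0.87 with all libraries. The lowest value of each came without NonA RNAi replicate 1. The number of Aats- genes at an unadjusted p under 0.05 was 0 in the edgeR test as reported, against 4.86% of all genes. It was 3 in edgeR without a filter, against 7.29%, and 2 in DESeq2, against 8.67%. The groups did not overlap for 4 genes, against 32.8% of all genes in either direction. The count was 8 with TMM scaling, against 32.8%, and 8 with Pdf left out of the library size, against 33.0%. With single libraries left out it was 9 to 18, where fewer libraries are compared and 61.8% to 72.5% of all genes did not overlap. Over all genes 0 passed, against 79 without a filter, 143 in DESeq2 and 0 to 25 with single libraries left out, the 25 without control replicate 2.

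With single libraries left out, the log2 fold ran from -0.14 to 2.19 for Aats-ala, -0.056 to 1.37 for Aats-ala-m, -0.31 to 0.78 for Aats-arg, -0.43 to 2.20 for Aats-glupro, -0.81 to 1.36 for Aats-ile, -0.18 to 1.15 for Aats-thr, -0.32 to 1.04 for Aats-trp and -0.97 to 1.03 for Aats-val, each below 0 without NonA RNAi replicate 1. For nonA it ran from -0.57 to 0.19, above 0 without that same library. For Aats-his it ran from -0.58 to 0.051, above 0 without NonA RNAi replicate 2. For Aats-tyr it ran from -0.13 to 1.20, below 0 without control replicate 1, and for Aats-pro from -0.55 to 1.33, below 0 without control replicate 2 and, at -0.16, without NonA RNAi replicate 1. Other scalings, filters, the block and DESeq2 reversed no Aats- gene. No label says that shared replicate numbers pair libraries, and deviations of same-numbered libraries had a correlation of -0.011 over 9404 genes. With the replicate block 0 of all genes passed and 0 of the 21. Aats-ser has no value under the filter of a mean of 10 CPM, and Aats-met none under that of a mean RPKM of 1.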
